A study of Homo sapiens with 3 samples.

Results

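10 genes of enzymes that make, reduce or oxidise steroid hormones were followed in 3 single-cell libraries of prostate cancer cell lines. They were AKR1C1, AKR1C2, AKR1C3, SRD5A1, SRD5A3, HSD17B2, HSD17B4, HSD17B6, HSD17B11 and DHRS7. These 10 genes were taken by name, out of 33423 genes with a row in any of the 3 count files, and a gene with no row in a file was counted as 0 there. The libraries were made by Drop-seq, in which a droplet joins a cell with a barcoded bead and captured mRNA is tagged near its 3′ end with a unique molecular identifier (UMI), so that molecules can be counted. Enzalutamide (ENZ), a drug that blocks androgen signaling, was given at 10 µM in a pair of groups, for 168 h to LNCaP (LNCaP–ENZ168) and for 48 h to VCaP (VCaP–ENZ48). The control, VCaP parental, was VCaP exposed for 48 h to 0.1% DMSO. The labels do not give the DMSO share in the ENZ arms. Both lines were grown with fetal bovine serum, LNCaP in RPMI and VCaP in DMEM, and all 3 groups were labelled sensitive to ENZ. Each group was 1 library, so differences between groups have no replicates behind them and none was tested. The question that the VCaP pair addresses is how a cell line responds to short ENZ exposure. LNCaP–ENZ168 differs from both VCaP libraries in cell line, medium and time, and from VCaP parental also in treatment, and these cannot be told apart.

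Active androgens are made and removed through a chain of reductions and oxidations of the steroid skeleton. AKR1C3 reduces the 17-keto group of weak androgens and so makes testosterone, while 5α-reductases turn testosterone into dihydrotestosterone, the strongest natural androgen. Other members of the aldo-keto reductase (AKR) and hydroxysteroid dehydrogenase (HSD17B) families run such steps in the other direction and lower or restore the active hormone. In prostate cancer cells these enzymes are studied because they can supply androgen when the circulating hormone is low. Several of them also act on lipids, retinoids or foreign carbonyl compounds.

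Of 1000 barcodes per file, the cell filter kept 944 in LNCaP–ENZ168, 997 in VCaP parental and 947 in VCaP–ENZ48. They held 6313283, 19515202 and 14301287 UMIs, so that 3 UMIs, the limit that a count of 0 allows, correspond to 0.475, 0.154 and 0.210 CPM (UMIs scaled to a common library total). Each pair of libraries shared 1 barcode. The luminal epithelial genes EPCAM, KRT8 and KRT18 summed to between 809 and 937 CPM in the 3 libraries. ERG, which a gene fusion places under androgen control in VCaP, had 105 CPM in VCaP parental, 57.1 CPM in VCaP–ENZ48 and 0 UMIs in LNCaP–ENZ168. Of the androgen-responsive genes KLK2, KLK3, FKBP5 and TMPRSS2, KLK2 was higher in VCaP–ENZ48 (3053 CPM) than in VCaP parental (1554 CPM), and FKBP5 was lower (23.8 against 66.9 CPM). Markers of fibroblasts, leukocytes and endothelium summed to at most 6.49 CPM per list in any library. In LNCaP–ENZ168 the fibroblast list held 4.91 CPM of COL3A1 with DCN and COL1A2 at 0 UMIs and 1.58 CPM of COL1A1, PTPRC and CD3E were at 0 and CD68 at 1 UMI, and PECAM1 and CDH5 were at 0. VWF, of the endothelial list, had 2.06 CPM (13 UMIs) in LNCaP–ENZ168, 0.154 CPM in VCaP parental and 0 UMIs in VCaP–ENZ48. Genes of the S and G2M phases took 1.51% of UMIs in VCaP parental, 0.286% in VCaP–ENZ48 and 0.635% in LNCaP–ENZ168. Barcodes whose last letter was N instead of a base numbered 859 of the kept barcodes in VCaP parental, 820 in VCaP–ENZ48 and 205 in LNCaP–ENZ168. The part of cycling genes and barcode endings in the results was not tested, and values split by both stand beside the results they touch.

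The 3 AKR1C genes lie beside each other on GRCh38 chromosome 10, AKR1C1 at 4963253 to 4983283 on the plus strand, AKR1C2 at 4987775 to 5018031 on the minus strand and AKR1C3 at 5035354 to 5107686 on the plus strand. Near-identical copies can share reads, which is taken up below with the transcript ends. The promoter windows given here do not measure it. The RefSeq promoter tables (GRCh38.p14) held an entry for 7 of the 10 genes. The 250 bases before the RefSeq start of AKR1C1 and of AKR1C2 share an unbroken run of 245 identical bases, and only window ends differ. The AKR1C3 windows matched those of AKR1C1 and AKR1C2 at 74.4 to 75.2% of positions. Shown are AKR1C1 (chr10:4963165-4963414, plus strand), in which capitals mark the bases outside the run shared with AKR1C2, and an AKR1C3 promoter (chr10:5048531-5048780, plus strand), in which capitals mark the letters TATAAA read on the opposite strand.
AKR1C1: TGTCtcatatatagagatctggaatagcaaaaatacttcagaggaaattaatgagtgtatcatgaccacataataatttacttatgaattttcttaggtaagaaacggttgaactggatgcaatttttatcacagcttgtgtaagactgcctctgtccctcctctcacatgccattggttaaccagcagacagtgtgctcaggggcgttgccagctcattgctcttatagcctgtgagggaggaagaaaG
AKR1C3: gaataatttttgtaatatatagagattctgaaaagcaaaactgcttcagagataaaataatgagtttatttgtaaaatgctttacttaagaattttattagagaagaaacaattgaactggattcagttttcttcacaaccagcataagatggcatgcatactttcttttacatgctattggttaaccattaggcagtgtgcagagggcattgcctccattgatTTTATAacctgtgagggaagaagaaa

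Of the promoters searched on both strands, 13.3% of 35116 held TGACNNNGC, the core of the antioxidant response element. Among the 7 enzyme genes with an entry this was found for SRD5A3, starting 22 bases before the start site. HSD17B2, HSD17B6 and DHRS7 had no entry and were not searched. SRD5A3 encodes a reductase needed to make dolichol, the lipid carrier of protein glycosylation, and is named for its kinship with the 5α-reductases. Its promoter (chr4:55345992-55346241, plus strand) is shown with the matching letters in capitals, read on the opposite strand.
SRD5A3: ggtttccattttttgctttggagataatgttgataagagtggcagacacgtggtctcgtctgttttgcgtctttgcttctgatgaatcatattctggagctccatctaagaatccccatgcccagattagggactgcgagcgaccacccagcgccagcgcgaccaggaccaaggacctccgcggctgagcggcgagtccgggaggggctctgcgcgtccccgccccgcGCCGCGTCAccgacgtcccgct
TATAAA was in 11.5% of all promoters and, of the genes with an entry, in the AKR1C3 promoter shown above, at 26 bases before the start. The other AKR1C3 entry, whose window starts at 5094164, had 0 matches. TGTTCT, a half-site of the hormone response element, was in 14.8% of all promoters and in none of the entries for these genes. None of these motifs overlaps another in the windows shown.

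**Figure D1:**
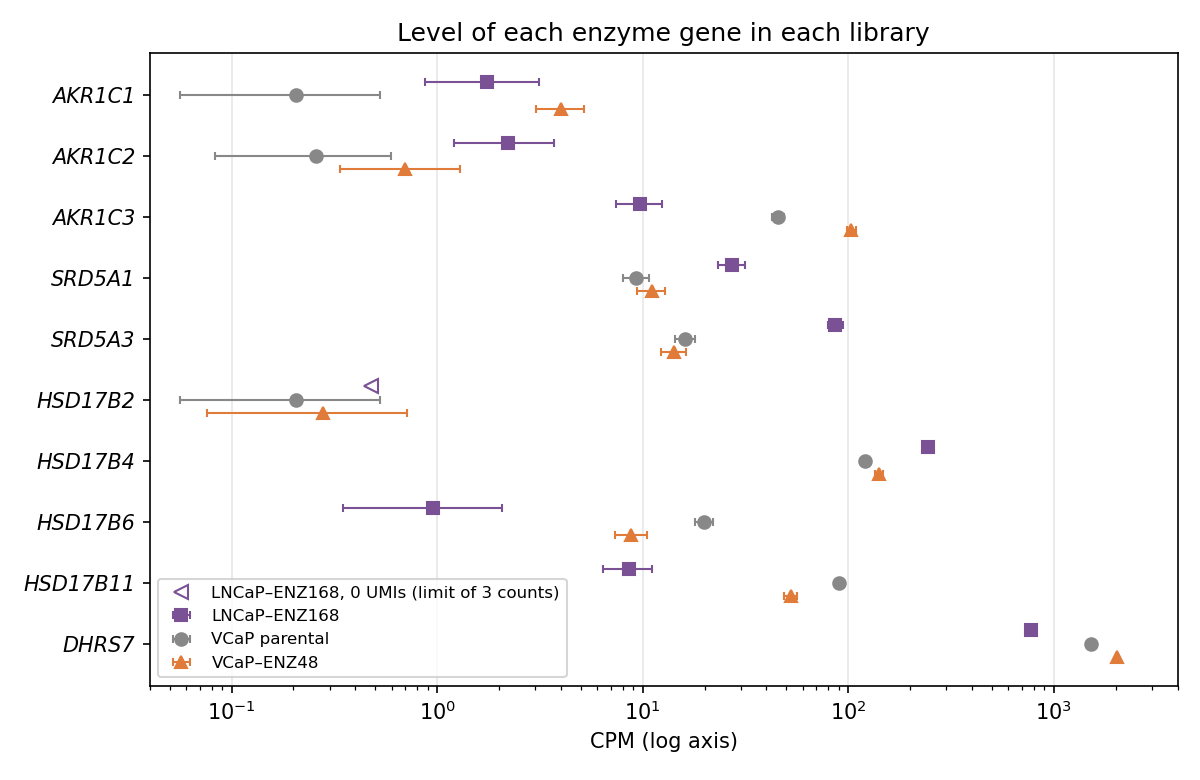
CPM (log axis) of each of the 10 enzyme genes in LNCaP–ENZ168 (squares), VCaP parental (circles) and VCaP–ENZ48 (triangles), with exact Poisson 95% intervals, and an open marker at the limit of 3 counts where a library had 0 UMIs. DHRS7 was the highest of the 10 in each library, and AKR1C3, HSD17B6, HSD17B11 and DHRS7 were lowest in LNCaP–ENZ168.

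The levels of the 10 genes spanned from 0 UMIs for HSD17B2 in LNCaP–ENZ168 to 2033 CPM for DHRS7 in VCaP–ENZ48, as the plot of levels by library shows. Drop-seq counts a molecule once from its 3′ end, so UMIs were not divided by transcript length. The 10 genes summed to 1152 CPM in LNCaP–ENZ168, 1814 CPM in VCaP parental and 2369 CPM in VCaP–ENZ48. DHRS7 made up 67.0%, 83.3% and 85.8% of these sums. All 10 genes had a UMI in both VCaP libraries and 9 in LNCaP–ENZ168.

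**Figure D2:**
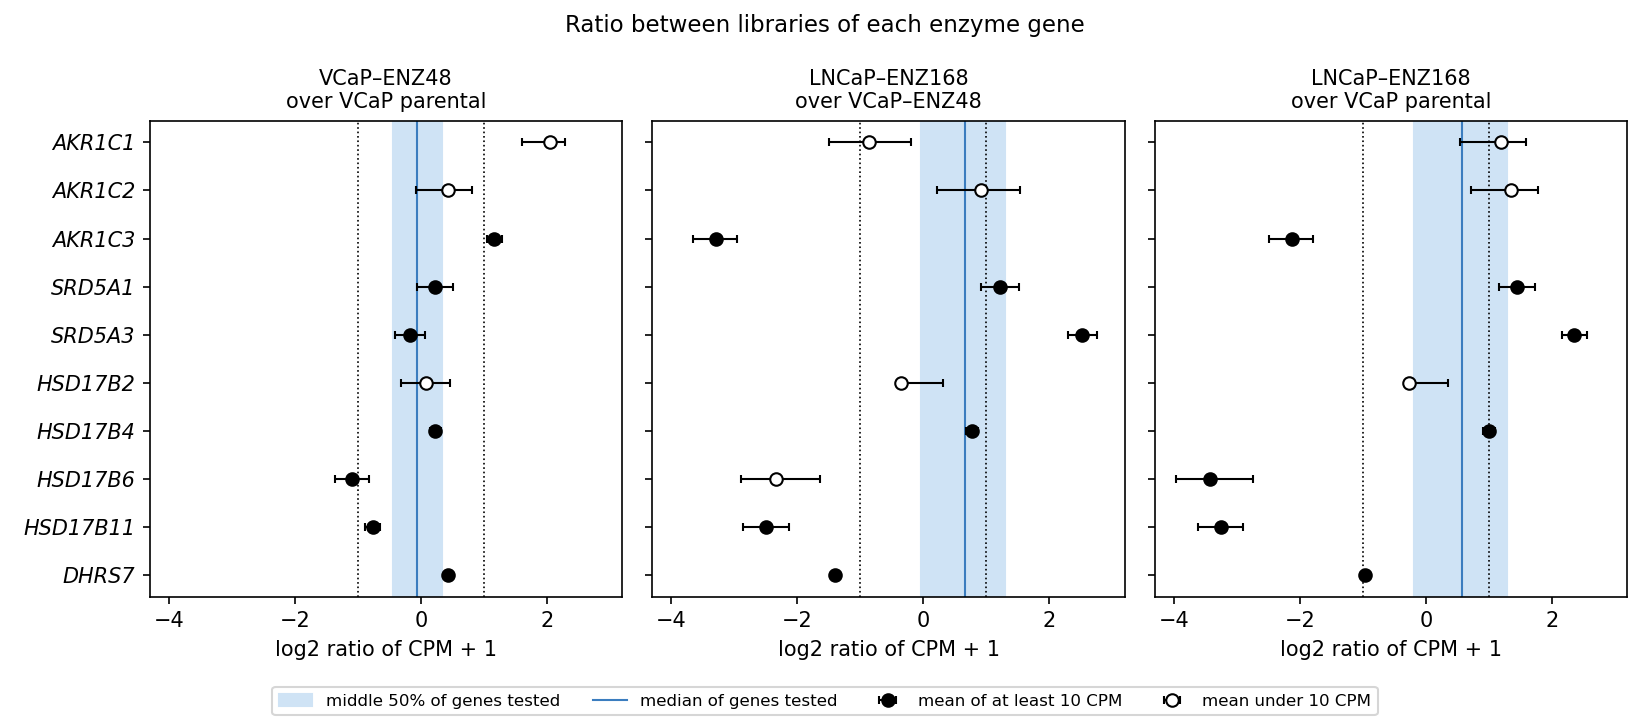
Log2 ratio of CPM + 1 for each enzyme gene (rows) in the 3 comparisons (panels), with exact 95% intervals of the counts, filled where the mean of both libraries was at least 10 CPM. The shaded band and line give the middle 50% and the median of all genes at or above that level, and dotted lines mark 2-fold; AKR1C3 and AKR1C1 are the genes past 2-fold to the right in the VCaP pair.

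In the VCaP pair, 7 of the 10 genes reached a mean of 10 CPM, the minimum for a gene to be counted. Of these, 1 was past 2-fold higher in VCaP–ENZ48 (AKR1C3), 1 was past 2-fold lower (HSD17B6) and 5 lay within 2-fold. Among all 7729 genes of this level, 8.19% were past 2-fold higher and 6.77% lower. The median log2 ratio of the 7 genes was 0.22, and that of all genes was -0.066 with quartiles of -0.44 and 0.34. AKR1C1, AKR1C2 and HSD17B2 were under the minimum.

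AKR1C3 was the keto reductase with the most UMIs in every library. It had 61 UMIs (9.66 CPM, 95% interval 7.39 to 12.4) in LNCaP–ENZ168, 890 (45.6 CPM, 42.7 to 48.7) in VCaP parental and 1480 (103 CPM, 98.3 to 108.9) in VCaP–ENZ48. The 3 intervals do not overlap, and the order placed both VCaP libraries above LNCaP–ENZ168. The log2 ratio of VCaP–ENZ48 over VCaP parental was 1.16 (95% interval 1.05 to 1.28), a fold of 2.24. Compared with VCaP–ENZ48, LNCaP–ENZ168 was lower by a log2 ratio of -3.29 (-3.65 to -2.95), and compared with VCaP parental by -2.13 (-2.49 to -1.78). The VCaP ratio was 1.29 in barcodes ending in a base, 1.13 in barcodes ending in N, 1.26 in cells of 5000 to 15000 UMIs and 1.11 in cells with at most 0.6% of UMIs in cycling genes. Scaling moved it under 2-fold, to 0.88 with TMM factors (library totals scaled by the trimmed mean of gene ratios) and 0.80 as UMIs per cell, while the direction held.

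AKR1C1, which reduces progesterone to a weaker steroid, had 4 UMIs in VCaP parental (0.205 CPM), 57 in VCaP–ENZ48 (3.99 CPM) and 11 in LNCaP–ENZ168 (1.74 CPM). The 57 UMIs of VCaP–ENZ48 lay in 52 cells, with at most 2 in a cell. Its log2 ratio in the VCaP pair was 2.05 (95% interval 1.61 to 2.296) on the CPM + 1 scale, which understates changes of genes at so low a level. The interval of VCaP–ENZ48 (3.02 to 5.16 CPM) overlaps that of LNCaP–ENZ168 (0.870 to 3.12 CPM), and both lie above that of VCaP parental (0.0558 to 0.525 CPM). The log2 ratio of AKR1C1 in LNCaP–ENZ168 over VCaP–ENZ48 was -0.86 (-1.495 to -0.19).

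AKR1C2, which inactivates dihydrotestosterone, had 14 UMIs in LNCaP–ENZ168 (2.22 CPM), 5 in VCaP parental (0.256 CPM) and 10 in VCaP–ENZ48 (0.699 CPM). The intervals of LNCaP–ENZ168 and VCaP parental do not overlap, and that of VCaP–ENZ48 overlaps both. The log2 ratio of AKR1C2 in LNCaP–ENZ168 over VCaP–ENZ48 was 0.92 (0.21 to 1.53). Counts of the 3 AKR1C genes are uncertain, because a read from a near-identical stretch can be assigned to another copy or dropped. Of the 50-base words in the last 500 bases of the main AKR1C2 transcript, 53.2% also occur in AKR1C1. For AKR1C3 27.1% occur in AKR1C1, AKR1C2 or AKR1C4, and for the other 8 genes 0% occur in another gene. These 8 include AKR1C1, whose main transcript is 6543 bases long, against 3215 for AKR1C2, and was searched only in its last 500 bases. The words shared with AKR1C2 lie elsewhere in AKR1C1 transcripts. The 0% therefore does not show that AKR1C1 counts are free of shared reads.

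In CPM, SRD5A1 and SRD5A3 of the 5α-reductase family had their highest levels in LNCaP–ENZ168. SRD5A1, on chromosome 5 (6633427 to 6674386, plus strand), is the 5α-reductase that prevails in prostate cancer cells. It had 171 UMIs in LNCaP–ENZ168 (27.1 CPM, 95% interval 23.2 to 31.5), 182 in VCaP parental (9.33 CPM, 8.02 to 10.8) and 158 in VCaP–ENZ48 (11.05 CPM, 9.39 to 12.9). The VCaP libraries overlap each other, with a log2 ratio of 0.22 (-0.07 to 0.51), and neither overlaps LNCaP–ENZ168. LNCaP–ENZ168 was above VCaP–ENZ48 by a log2 ratio of 1.22 (0.92 to 1.52) and above VCaP parental by 1.44 (1.15 to 1.73). With TMM factors these were 0.71 and 0.67, within 2-fold. As UMIs per cell they were 0.11 (-0.19 to 0.41) and -0.010 (-0.30 to 0.28). On the CPM scale, 72.6% and 79.7% of all genes counted had a ratio at or below that of SRD5A1.

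SRD5A3, on chromosome 4 (55346213 to 55373100, plus strand), had 546 UMIs in LNCaP–ENZ168 (86.5 CPM, 79.4 to 94.1), 314 in VCaP parental (16.1 CPM, 14.4 to 18.0) and 203 in VCaP–ENZ48 (14.2 CPM, 12.3 to 16.3). Again the VCaP libraries overlap, with a log2 ratio of -0.17 (-0.41 to 0.07), and LNCaP–ENZ168 stands apart from both. Its log2 ratio was 2.53 (2.302 to 2.75) over VCaP–ENZ48 and 2.36 (2.16 to 2.55) over VCaP parental. The third family member, SRD5A2, the 5α-reductase of normal prostate stroma, had no row in any of the 3 files. The antisense gene SRD5A3-AS1 overlaps the 3′ end of SRD5A3 and had at most 1.27 CPM.

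HSD17B4, on chromosome 5 (119452465 to 119637199, plus strand), is a peroxisomal enzyme of fatty acid oxidation that can also oxidise 17β-hydroxysteroids. It had 1535 UMIs in LNCaP–ENZ168 (243 CPM, 95% interval 231 to 256), 2353 in VCaP parental (120.6 CPM, 115.8 to 125.5) and 2025 in VCaP–ENZ48 (142 CPM, 135 to 147.9). The 3 intervals do not overlap. The ratio in the VCaP pair was 0.23 (0.14 to 0.32), but its direction did not hold in barcodes ending in a base (-0.05), with TMM factors (-0.06) or as UMIs per cell (-0.14). LNCaP–ENZ168 was above VCaP parental by a log2 ratio of 1.01 (0.91 to 1.10) and above VCaP–ENZ48 by 0.78 (0.68 to 0.87). As UMIs per cell both directions turned, to -0.53 and -0.39.

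HSD17B6, on chromosome 12 (56752161 to 56787790, plus strand), oxidises androstanediol back to dihydrotestosterone. It had 6 UMIs in LNCaP–ENZ168 (0.950 CPM, 95% interval 0.349 to 2.07), 387 in VCaP parental (19.8 CPM, 17.9 to 21.9) and 126 in VCaP–ENZ48 (8.81 CPM, 7.34 to 10.49). The intervals do not overlap, and the gene was close to undetected in LNCaP–ENZ168. The log2 ratio in the VCaP pair was -1.09 (-1.36 to -0.82), a fold of 2.12. It was -1.64 in barcodes ending in a base and -0.96 in barcodes ending in N. Among cells with at most 0.6% of UMIs in cycling genes it was -0.83 (-1.18 to -0.47), within 2-fold. PRIM1, a DNA replication gene that overlaps the 5′ part of HSD17B6 by 214 bases on the opposite strand, had 32.9 CPM in LNCaP–ENZ168, 106 in VCaP parental and 21.3 in VCaP–ENZ48.

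HSD17B11, on chromosome 4 (87336515 to 87391188, minus strand), is an enzyme of lipid droplets that oxidises androstanediol at its 17β-hydroxyl group. It had 54 UMIs in LNCaP–ENZ168 (8.55 CPM, 95% interval 6.43 to 11.2), 1757 in VCaP parental (90.0 CPM, 85.9 to 94.3) and 753 in VCaP–ENZ48 (52.7 CPM, 49.0 to 56.6). None of the intervals overlap, and LNCaP–ENZ168 was lowest. The log2 ratio in the VCaP pair was -0.76 (-0.89 to -0.64), and it was -1.05 with TMM factors and -1.14 as UMIs per cell. LNCaP–ENZ168 lay below VCaP–ENZ48 by -2.49 (-2.87 to -2.13) and below VCaP parental by -3.25 (-3.62 to -2.90).

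HSD17B11 was higher in cells with more UMIs of cycling genes, within both VCaP libraries. In VCaP parental it had 58.6 CPM (95% interval 52.9 to 64.8) in the 361 cells with at most 0.6% of UMIs in the S and G2M genes, and 105.8 CPM (100.3 to 111.5) in the other 636. In VCaP–ENZ48 the values were 50.8 CPM (47.1 to 54.8) in 901 cells and 79.1 CPM (62.1 to 99.3) in 46. In LNCaP–ENZ168 they were 8.38 CPM (5.99 to 11.4) in 738 cells and 9.09 CPM (4.97 to 15.2) in 206, with intervals that overlap. Between the VCaP libraries, cells with at most 0.6% gave a log2 ratio of -0.20 (-0.38 to -0.02) for HSD17B11, against -0.76 in all cells. Cells of 5000 to 15000 UMIs gave -0.24 (-0.50 to 0.01), and the barcode endings gave -0.80 for a base and -0.76 for N. The difference of HSD17B11 between the VCaP libraries was smaller in these cells low in cycling genes and in this window of depth. It was not smaller in the deepest of 4 groups of cells by depth, with medians of 28431 and 29227 UMIs, where HSD17B11 had 94.9 CPM in VCaP parental and 47.5 CPM in VCaP–ENZ48. DHRS7 was lower in the cells above 0.6% in all 3 libraries, and AKR1C3 in LNCaP–ENZ168 and VCaP–ENZ48. DHRS7 had 852 against 524 CPM in LNCaP–ENZ168, 1684 against 1425 in VCaP parental and 2077 against 1398 in VCaP–ENZ48. AKR1C3 had 106 CPM in the lower and 65.2 in the higher cells of VCaP–ENZ48, 11.9 and 2.60 in LNCaP–ENZ168, and 48.8 and 44.0 in VCaP parental, where the intervals overlap. SRD5A3 was higher in the cells above 0.6% of LNCaP–ENZ168, at 111 CPM (94.99 to 129) against 78.6 CPM (70.8 to 86.9), while its intervals overlap in both VCaP libraries. SRD5A1 had 24.6 CPM (15.6 to 36.9) in the 46 cells above 0.6% of VCaP–ENZ48 and 10.1 CPM (8.47 to 11.96) in the others.

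**Figure D3:**
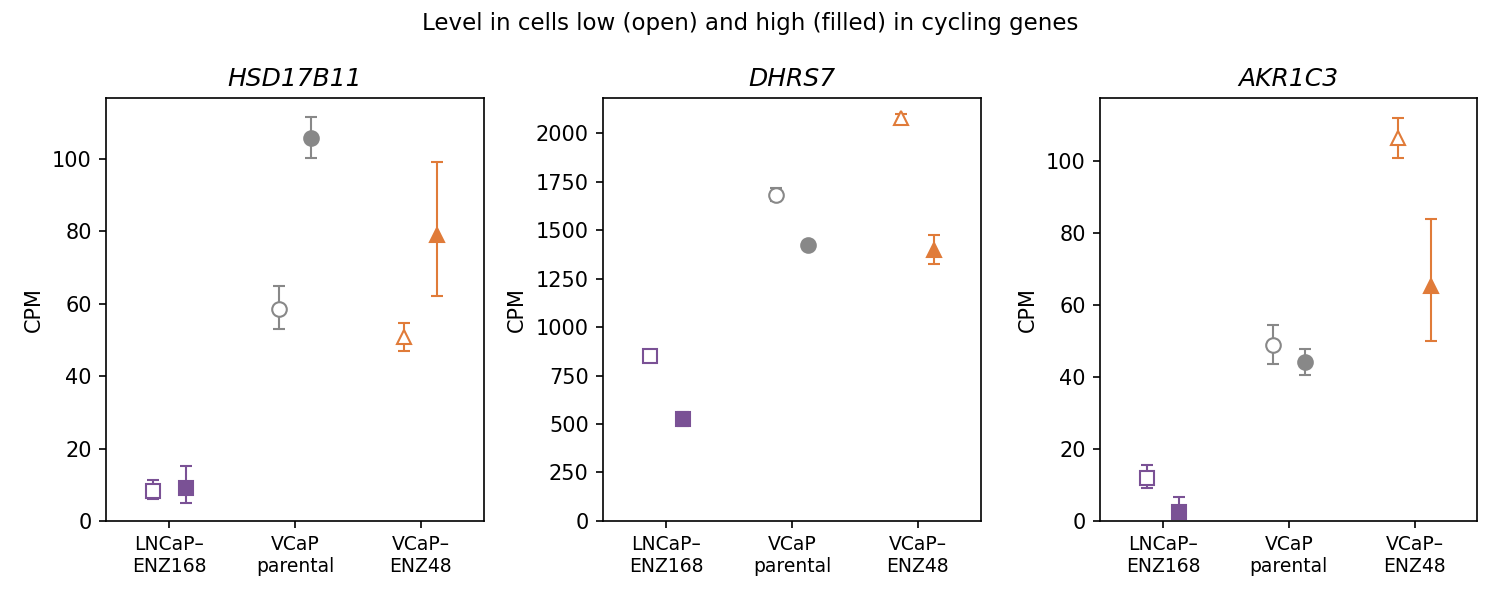
Level in CPM of HSD17B11, DHRS7 and AKR1C3 (panels) in cells with at most 0.6% (open) and above 0.6% (filled) of UMIs in S and G2M phase genes, by library, with exact Poisson 95% intervals. HSD17B11 is higher in the filled points of both VCaP libraries, and DHRS7 is lower in the filled points of all 3 libraries.

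HSD17B2, which oxidises testosterone and estradiol to their weaker keto forms, had 4 UMIs in each VCaP library (0.205 and 0.280 CPM) and 0 in LNCaP–ENZ168, a count that allows at most 0.475 CPM. No difference in HSD17B2 was detectable at this depth.

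DHRS7, on chromosome 14 (60144119 to 60169856, minus strand), is a short-chain reductase of the endoplasmic reticulum with activity on steroids and retinoids. It had 4875 UMIs in LNCaP–ENZ168 (772 CPM, 95% interval 751 to 794), 29497 in VCaP parental (1511 CPM, 1494 to 1529) and 29070 in VCaP–ENZ48 (2033 CPM, 2009 to 2056). The order of the libraries was that of AKR1C3, with intervals that do not overlap. The log2 ratio in the VCaP pair was 0.43 (0.40 to 0.45), and it was 0.14 with TMM factors and 0.05 as UMIs per cell. It was 0.36 in barcodes ending in a base, 0.60 in cells of 5000 to 15000 UMIs and 0.30 in cells with at most 0.6% of UMIs in cycling genes. In cells with at most 0.2%, of which VCaP parental had 22, it turned to -0.22 (-0.32 to -0.12). LNCaP–ENZ168 was below VCaP–ENZ48 by -1.40 (-1.44 to -1.35) and below VCaP parental by -0.97 (-1.01 to -0.92). PCNX4 overlaps DHRS7 on the opposite strand over 25015 bases, its 3′ end included, and had 62.6 CPM in LNCaP–ENZ168, 164 in VCaP parental and 157 in VCaP–ENZ48. Whether counting used strand is not given in the sources used here beyond default settings.

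Against VCaP–ENZ48, LNCaP–ENZ168 had 6 enzyme genes at or above this minimum, of which 2 were past 2-fold higher (SRD5A1 and SRD5A3) and 3 lower (AKR1C3, HSD17B11 and DHRS7). Among 8854 genes, 35.5% were higher and 11.1% lower. The median log2 ratio was -0.31 for these 6 genes and 0.65 for all genes. Against VCaP parental, 3 of 7 enzyme genes were past 2-fold higher (SRD5A1, SRD5A3 and HSD17B4) and 3 lower (AKR1C3, HSD17B6 and HSD17B11). Of 8526 genes, 33.6% were higher and 10.8% lower, and the medians were -0.97 for the 7 genes and 0.57 for all. The 2 comparisons share LNCaP–ENZ168. With TMM factors the median of all genes was 0.10 over VCaP–ENZ48 and -0.28 over VCaP parental, and SRD5A3 alone was past 2-fold higher in either.

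Cells were next compared at equal depth, since a cell of VCaP parental held a median of 17817 UMIs against 11224 in VCaP–ENZ48 and 5389 in LNCaP–ENZ168. Each cell was thinned at random to 2000 UMIs, which left out 1 cell of LNCaP–ENZ168, none of VCaP parental and 30 of VCaP–ENZ48. At this depth DHRS7 had a UMI in 75.8% of LNCaP–ENZ168 cells (exact Clopper-Pearson 95% interval 73.0 to 78.5), in 92.2% of VCaP parental cells (90.3 to 93.8) and in 95.4% of VCaP–ENZ48 cells (93.9 to 96.7). Without thinning the shares were 95.8%, 100% and 98.2%. These libraries hold no cell type that should lack the genes, so the share that free RNA gives was not measured.

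AKR1C3 had a UMI in 1.80% of thinned LNCaP–ENZ168 cells (1.05 to 2.87), 8.43% of VCaP parental cells (6.78 to 10.3) and 18.6% of VCaP–ENZ48 cells (16.2 to 21.3). HSD17B11 had a UMI in 1.70% (0.973 to 2.74), 14.2% (12.1 to 16.6) and 9.81% (7.97 to 11.9) of cells, in the same order. HSD17B4 was in 35.2% (32.2 to 38.4), 21.4% (18.9 to 24.0) and 23.0% (20.3 to 25.9), and SRD5A3 in 16.2% (13.9 to 18.7), 3.51% (2.46 to 4.85) and 2.73% (1.77 to 3.998). Each order follows the CPM, except that the VCaP libraries overlap for HSD17B4 and SRD5A3. Without thinning, AKR1C3 had a UMI in 5.72%, 50.6% and 58.7% of cells, and HSD17B11 in 5.30%, 69.0% and 44.03%.

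**Figure D4:**
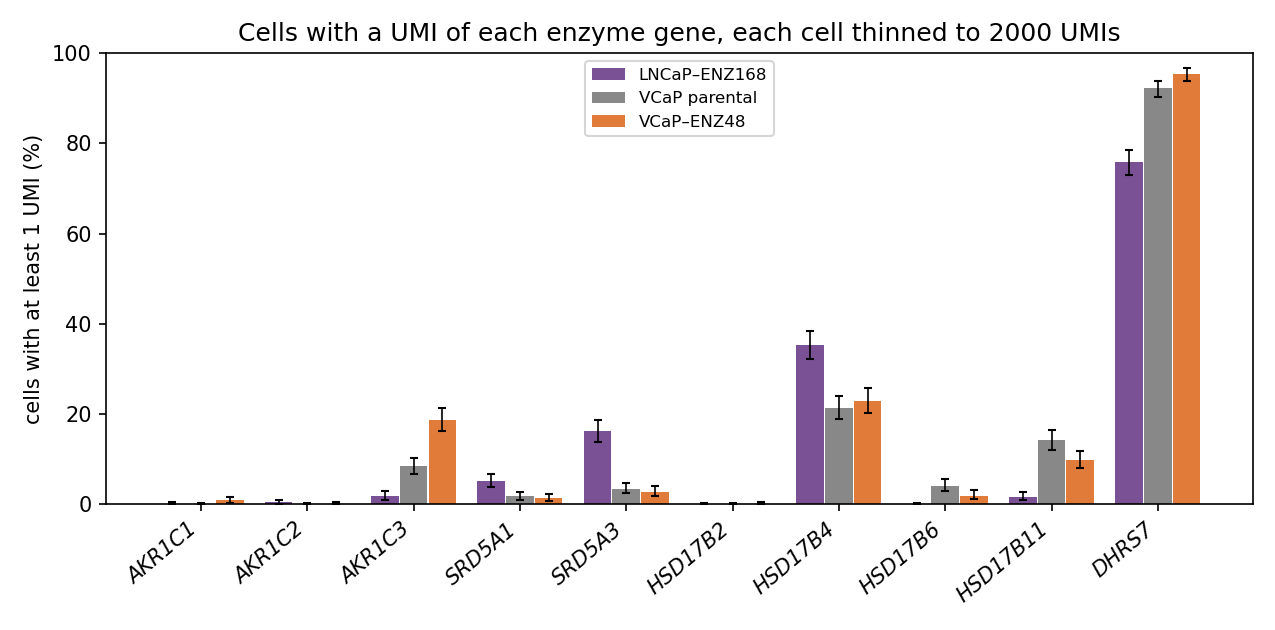
Percent of cells with at least 1 UMI of each enzyme gene after thinning every cell to 2000 UMIs, in the 3 libraries (bars from 0), with exact Clopper-Pearson 95% intervals. DHRS7 bars reach 75.8 to 95.4%, HSD17B4 is next in each library, and AKR1C3 is highest in VCaP–ENZ48.

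SRD5A1 had a UMI in 5.09% of LNCaP–ENZ168 cells (3.78 to 6.69), 1.81% of VCaP parental cells (1.07 to 2.84) and 1.42% of VCaP–ENZ48 cells (0.757 to 2.41). HSD17B6 was found in 4.11% (2.97 to 5.54) of VCaP parental and 1.96% (1.17 to 3.08) of VCaP–ENZ48 cells. It was in 0 of 943 thinned LNCaP–ENZ168 cells, where the exact interval reaches 0.390%. AKR1C1, AKR1C2 and HSD17B2 were in under 1% of the thinned cells of each library, at most 0.872% for AKR1C1 in VCaP–ENZ48. Leaving out DHRS7, 49.6% of LNCaP–ENZ168 cells, 56.1% of VCaP parental cells and 52.6% of VCaP–ENZ48 cells had no UMI of the other 9 genes.

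The UMIs of DHRS7 per thinned cell had a median of 1 in LNCaP–ENZ168, 3 in VCaP parental and 4 in VCaP–ENZ48, with maxima of 10, 16 and 20. The Fano factor, the variance divided by the mean, was 1.35, 1.36 and 2.12, where counting alone gives about 1. It was highest in VCaP–ENZ48, but it also rises with the mean where cells differ, and the means were 1.60, 3.00 and 4.29 UMIs. The libraries were therefore not ranked by their spread of DHRS7. For AKR1C3 the Fano factor lay between 1.02 and 1.09 in the 3 libraries. The AKR1C3 means of 0.019, 0.091 and 0.209 UMIs are too low for it to show spread between cells. Across 4 groups of VCaP–ENZ48 cells of rising depth, with median UMIs of 3788, 8138, 14956 and 29227, DHRS7 had 2173, 2263, 2133 and 1914 CPM, and AKR1C3 had 102, 119, 113 and 95.7 CPM. In VCaP parental, where these medians were 11777, 15993, 19964 and 28431, DHRS7 had 1469, 1520, 1506 and 1526 CPM and HSD17B11 had 74.6, 85.4, 94.9 and 94.9 CPM. In each of these 4 groups VCaP–ENZ48 was above VCaP parental for DHRS7, and HSD17B11 in VCaP–ENZ48 lay between 42.6 and 64.7 CPM. The groups were cut within each library, so only the deepest had like medians, 29227 and 28431 UMIs.

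**Figure D5:**
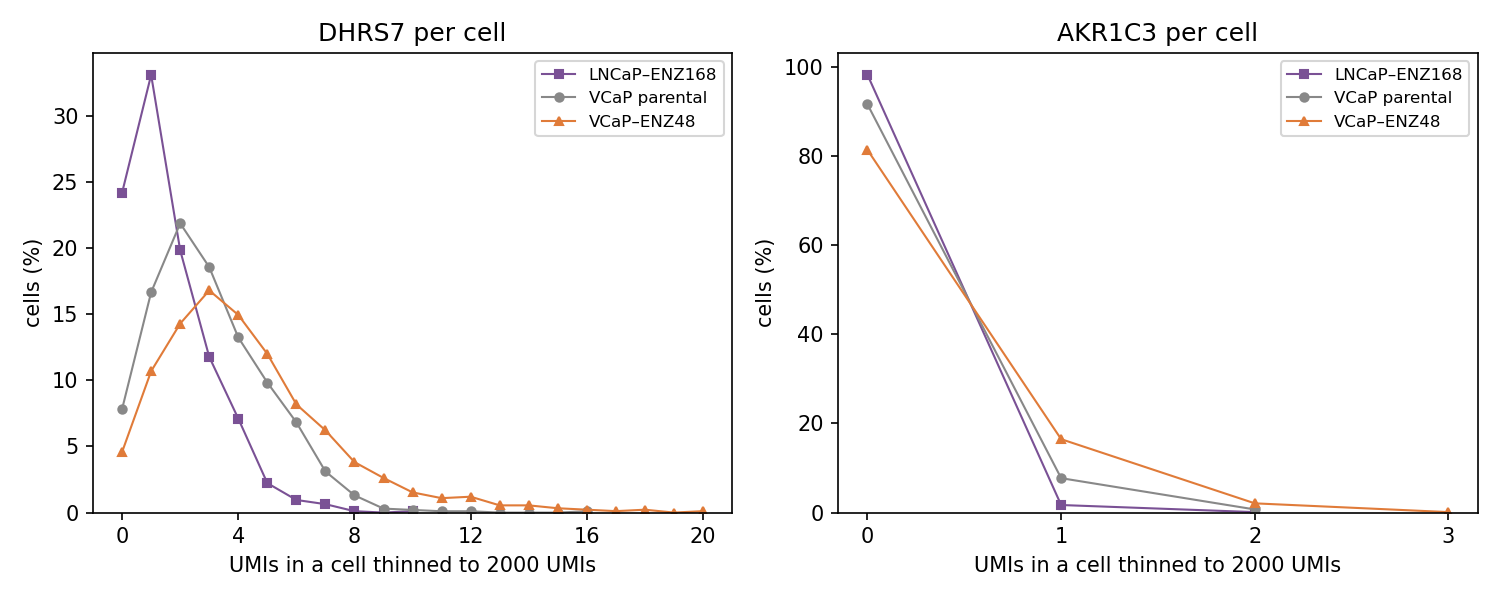
Percent of cells by number of UMIs of DHRS7 (left) and AKR1C3 (right) in cells thinned to 2000 UMIs, with 1 line per library. The DHRS7 line of VCaP–ENZ48 reaches 20 UMIs while that of LNCaP–ENZ168 ends at 10, and most cells of every library had 0 UMIs of AKR1C3.

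For the 3 enzyme genes with the highest mean level, profiles of log2(CPM + 1) over the 3 libraries were compared by Euclidean distance with those of 8503 genes at or above the same minimum. The closest to DHRS7 were NEAT1 (a distance of 0.19), RPL26 (0.20) and RPS15A (0.38). For HSD17B4 they were NKTR (0.15), EIF2S3 (0.19) and HADHB (0.19), and for AKR1C3 MGLL (0.29), RPS21P4 (0.30) and Z74021.1 (0.33). MGLL, a lipase of monoacylglycerols, had 9.66 CPM in LNCaP–ENZ168, 55.6 in VCaP parental and 99.2 in VCaP–ENZ48. Such distances over 3 libraries compare level as well as pattern. How close the nearest profiles of other genes lie was not measured, and shared regulation was not tested.

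The wider steroid pathway was described by 61 other genes in 8 lists, which include target genes of the transcription factor NRF2. Between the VCaP libraries 14 of them had at least 10 CPM, of which 0 were past 2-fold higher and 1 lower. Among all genes of this level 8.19% were higher and 6.77% lower. The pathway gene that was lower was CYB5A, the cytochrome b5 that aids the lyase step of androgen synthesis. It had 424 CPM in VCaP parental and 175 in VCaP–ENZ48 (log2 ratio -1.27, 95% interval -1.34 to -1.21). It belongs to the list of synthesis from cholesterol, in which TSPO, a mitochondrial membrane protein, had 410 and 503 CPM and POR, the electron donor of P450 enzymes, 45.5 and 28.2. CYP17A1, HSD3B1, CYP11A1 and STAR, which carry out or feed the early steps, had at most 2 UMIs in any library, and HSD3B2 had no row.

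In the same pair none of the counted genes of the other lists was past 2-fold. Under the minimum, HSD17B14 had 2.51 CPM in VCaP parental and 7.90 in VCaP–ENZ48, and CYP1B1 had 3.18 and 0.420 CPM. Among 17β-hydroxysteroid dehydrogenases 3 of 8 genes were counted. HSD17B12, an enzyme of fatty acid elongation, had 155 CPM in VCaP parental and 135 in VCaP–ENZ48, HSD17B10, a mitochondrial enzyme, had 67.7 and 43.3, and HSD17B8 14.6 and 15.2. HSD17B3, the testosterone-forming enzyme of the testis, had 1 UMI in all. RDH11, a retinol dehydrogenase abundant in prostate epithelium, had 1028 CPM in LNCaP–ENZ168, 687 in VCaP parental and 806 in VCaP–ENZ48, and was 1 of 9 counted in its list, in which RDH16 and RDH5 stayed under 3 CPM. Of the list of steroid receptors, NR3C1 and NR3C2 had at most 7.29 CPM. Of 3 uptake carriers, only SLCO1A2 had a UMI, 1 in LNCaP–ENZ168.

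LNCaP–ENZ168 had more pathway genes past 2-fold. Against VCaP–ENZ48 15 of 22 counted genes were higher and 1 was lower, against 35.5% and 11.1% of all genes. Against VCaP parental 13 of 22 were higher and 0 lower, against 33.6% and 10.8%. These counts are on CPM, where the median log2 ratio of all genes was 0.65 over VCaP–ENZ48 and 0.57 over VCaP parental. With TMM factors those medians were 0.10 and -0.28, and the pathway genes were not recounted with them. UGT2B17 and UGT2B15, which attach glucuronic acid to androgens, differed most in their list. UGT2B17 had 566 CPM in LNCaP–ENZ168, 2.82 in VCaP parental and 1.12 in VCaP–ENZ48, and UGT2B15 had 351, 9.43 and 4.96. Their sequences are similar enough to share reads, so the split between them is uncertain. PAPSS1, which makes the sulfate donor, was within 2-fold at 74.0, 138 and 145 CPM.

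Of 8 target genes of the transcription factor NRF2, which binds the antioxidant response element, 5 of 6 counted were past 2-fold higher in LNCaP–ENZ168 than in VCaP–ENZ48 and 0 lower, against 35.5% and 11.1% of all genes. Against VCaP parental 4 of 6 were past 2-fold higher and 0 lower, against 33.6% and 10.8% of all genes. The NRF2 counts too are on CPM and were not repeated with TMM factors. NQO1, a quinone reductase, had 182 CPM in LNCaP–ENZ168, 6.51 in VCaP parental and 10.1 in VCaP–ENZ48. TXNRD1, a thioredoxin reductase, had 265, 168 and 91.9 CPM, and GCLC, an enzyme of glutathione synthesis, 27.9, 14.5 and 15.7. In the VCaP pair 3 of these 8 were counted and 0 were past 2-fold, with a median log2 ratio of 0.0003. Of all genes in that pair 8.19% were higher and 6.77% lower. Of the other steroid enzymes, H6PD, which supplies NADPH in the endoplasmic reticulum, had 20.1 CPM in LNCaP–ENZ168, 4.46 in VCaP parental and 8.74 in VCaP–ENZ48, and HSD11B2 and CYP3A5 had at most 15.05 CPM.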

How the data were processed

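Drop-seq libraries, 1 per group, gave the expression of single cells. Per the study's methods, the authors used STAR for alignment to GRCh38 and the Drop-seq tools and Picard for counting, with Gencode genes, default settings and an expected 1000 cells. They deposited UMI counts, unnormalized, for each gene and barcode of 1000 barcodes a library. The study's methods filter cells by genes, molecules and mitochondrial share in a later step, and the limits here were set separately. Gene positions come from a newer Gencode release of GRCh38 than theirs.

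Cells were kept with at least 300 genes, 500 UMIs and at most 25% mitochondrial UMIs, and doublets were not removed. UMIs were summed over cells and scaled to CPM. Ratios are log2 ratios of CPM + 1. A gene was counted where its mean over the libraries compared reached 10 CPM, and called past 2-fold. Intervals are exact Poisson (levels), conditional binomial (ratios) and Clopper-Pearson (shares), all at 95%, and cover counting error only. Shares used cells thinned to 2000 UMIs. Cycling genes were the S and G2M lists of Seurat.

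The members, gene lists and naming rule were chosen with earlier results of these data known. The rule named all 10 members, the 3 highest genes of each list and the 3 nearest profiles of the 3 highest members. CYP17A1, HSD3B1, CYP11A1, STAR, HSD3B2, HSD17B3, SRD5A2, HSD17B14 and CYP1B1 were added after their values were seen. Splits by barcode ending, to cells of 5000 to 15000 UMIs and at 0.6% cycling genes were also chosen after seeing the data. Further alternatives covered the cell filter, high-depth and near-identical barcodes, the weight of cells, scaling, pseudocount, minimum level and thinning. Steps were tested on simulated data. Tools were Python 3.11.15, numpy 2.4.6, pandas 2.3.3, scipy 1.17.1, matplotlib 3.10.9, R 4.3.3, Seurat 5.3.0 and edgeR 4.0.16 (TMM factors). Some genes of the lists are not reported here.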

Additional observations from a re-analysis of the deposited data

How the results depend on the processing

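No paired analysis was possible because a group is 1 library here. The 30 ratios were recomputed under 19 alternatives. Counts of enzyme genes past 2-fold changed by over 1.5 times as follows. For VCaP–ENZ48 over VCaP parental, the count lower went from 1 to 2 in cells with low cycling genes (at most 0.2% of UMIs; SRD5A3 and HSD17B6, resting on 22 VCaP parental cells), with TMM factors and as UMIs per cell (HSD17B6 and HSD17B11), and to 0 in cells with at most 0.6%, in barcodes ending in N, with equal weight of cells, a pseudocount of 5 CPM and a minimum of 50 CPM. The count higher went from 1 to 0 with TMM factors, median-of-ratios size factors and UMIs per cell, and to 2 at a minimum of 1 CPM, where AKR1C1 joined. For LNCaP–ENZ168 over VCaP–ENZ48, the count higher went from 2 to 1 with TMM and median-of-ratios factors, totals without mitochondrial and ribosomal protein genes, UMIs per cell, a pseudocount of 5 CPM and a minimum of 50 CPM. For LNCaP–ENZ168 over VCaP parental, the count higher went from 3 to 1 with TMM and median-of-ratios factors and to 0 as UMIs per cell, and the count lower to 0 at a minimum of 50 CPM. Smaller changes were these. Over VCaP–ENZ48, the count higher was 3 in cells with low cycling genes, and the count lower was 4 at a minimum of 1 CPM and 2 at 50 CPM. Over VCaP parental, the count lower was 4, with DHRS7 joining, in cells with low cycling genes, with TMM and median-of-ratios factors, without mitochondrial and ribosomal protein genes and as UMIs per cell, and 2 in cells with at most 0.6%. The count higher was 4 at a minimum of 1 CPM and 2 in 9 alternatives. The minimum changes which genes are counted; other causes were not tested.

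Among the 30 ratios, these turned. In cells with low cycling genes HSD17B11 and DHRS7 were at 0.16 and -0.22 in the VCaP pair and AKR1C2 at -0.72 over VCaP–ENZ48. HSD17B4 in the VCaP pair was at -0.048 in barcodes ending in a base, -0.058 with TMM factors and -0.14 as UMIs per cell. As UMIs per cell HSD17B4 was at -0.39 over VCaP–ENZ48 and -0.53 over VCaP parental, and SRD5A1 at -0.010 over VCaP parental. In the VCaP pair, where their intervals include 0, SRD5A1 was at -0.042 with TMM factors and -0.12 as UMIs per cell, and HSD17B2 at -0.0085 in cells with at most 0.6% and -0.015 in cells of 5000 to 15000 UMIs. Over VCaP parental, AKR1C1, AKR1C2 and HSD17B2 had 0 UMIs in both libraries in cells with low cycling genes, as had HSD17B2 in barcodes ending in a base. AKR1C3, HSD17B6 and SRD5A3 kept their direction in all 3 comparisons under the 19 alternatives. The median of all genes in the VCaP pair was -0.34 with TMM factors, -0.28 with median-of-ratios factors, 0.09 without mitochondrial and ribosomal protein genes and -0.40 as UMIs per cell. Depth limits AKR1C1, AKR1C2 and HSD17B2, with at most 57 UMIs.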
